A study of Mus musculus with 9 samples.

Results

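Lungs of mice given Codonopsis pilosula, a plant used in traditional Chinese medicine, were set against lungs of mice given D-galactose and sodium nitrite, a treatment used to imitate ageing, by their miRNA content. The comparison rests on 6 of the 9 arrays of the series, chosen by their labels. Per the labels the 3 codonopsis mice received the plant at 15 g per kg with 30 days given, and the 3 model mice received D-galactose and sodium nitrite with 42 days given. For the codonopsis arrays the labels leave unsaid whether D-galactose or nitrite was given as well, although by the series title the plant was an intervention in mice that age. Neither strain nor age is given. Total RNA of lung was labelled with Cy3 and hybridised to single-colour Agilent mouse miRNA arrays, 1 array per mouse. Codonopsis 1 and 2 came from male mice and lay in row 1 of the slide, whereas codonopsis 3 and all 3 model arrays came from female mice and lay in row 2, so that sex and row cannot be told apart.

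The arrays carry 1881 mouse miRNAs, of which codonopsis arrays detected 408 to 468 each and model arrays 389 to 407. All 6 lay on 1 slide, their median correlation with each other was 0.960 to 0.982, and the 75th percentile of signal by which each was scaled was 246 to 303. Of the 12 lung epithelium markers 9 were detected on every array, and of 15 markers of other organs 12 were detected on none, miR-124-3p of neurons and miR-217-5p of pancreas among them. In whole lung, fewer cells of a type and less RNA per cell cannot be told apart.

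An miRNA is a short RNA, cut from either arm (5p or 3p) of a hairpin, that guides Argonaute proteins to messenger RNAs and represses them. Its seed, bases 2 to 8, sets most of the choice of targets, so miRNAs that share a seed form a family. Known examples in lung are miR-21, raised in inflamed and fibrotic tissue, the miR-29 family, which represses collagen genes, and the miR-34 and miR-449 family, which drives the formation of multiciliated cells.

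The miRNAs that rose with codonopsis belonged largely to groups of like sequence, and the sequences that show this are given first. They are mature sequences from RefSeq (GRCm38.p6), 5′ to 3′, with the seed in capitals. Each of the first 13 holds a UG repeat, defined as UGUGUG or GUGUGU on the strand of the mature miRNA (a run of 7 alternating bases holds both motifs). The repeat was chosen with earlier results of these data known.
miR-574-5p: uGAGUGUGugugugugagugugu
miR-1187: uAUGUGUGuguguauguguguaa
miR-3082-5p: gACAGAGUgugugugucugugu
miR-669n: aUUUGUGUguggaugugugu
miR-466j: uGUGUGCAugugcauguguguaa
miR-32-3p: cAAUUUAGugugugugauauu
miR-672-5p: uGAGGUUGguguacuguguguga
miR-6348: uCAGCCUUuauaaggugugugu
miR-206-3p: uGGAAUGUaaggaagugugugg
miR-5709-3p: aAAGUCUUaaggguguguauug
miR-3097-5p: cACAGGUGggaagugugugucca
let-7k: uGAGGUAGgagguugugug
let-7b-5p: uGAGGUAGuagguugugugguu
The first 12 rose, and let-7b-5p is shown because it shares both the repeat and the seed of let-7k and did not. The longest stretch of alternating U and G was 6 to 13 bases among the 12. The repeat starts at base 8 or earlier, thus overlapping the seed, in 6 of the 12 (miR-574-5p, miR-1187, miR-3082-5p, miR-669n, miR-466j and miR-32-3p) and at base 13 or later in the other 6.

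The next set rose as well and is made mostly of C and U, at 70% of bases or more. This set was chosen after its values were seen.
miR-7058-3p: cUCGUUCCuuccuuucuuccag
miR-8114: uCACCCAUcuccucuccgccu
miR-7047-3p: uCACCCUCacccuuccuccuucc
miR-483-3p: uCACUCCUccccucccgucuu
miR-207: gCUUCUCCuggcucuccucccuc
miR-1943-3p: cAGGUGCCagcuccucccuuc
miR-7017-3p: aCCCUGCUccucucccuccag
The 27 miRNAs that rose and have a sequence in the RefSeq table carry 27 different seeds. None of them shares its seed with another. The other 14 that rose, 12 of them miR-466 and miR-669 entries, have no sequence there, so their seeds could not be compared.

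The 2 groups are spread over the genome, so that no single locus joins them. On GRCm38.p6, miR-574-5p lies at chr5:64970328-64970350 on the plus strand, within the span of Fam114a1, and miR-32-3p at chr4:56895232-56895252 on the minus strand, within Tmem245. The mature miR-206-3p lies at chr1:20679055-20679076 on the plus strand, within the long noncoding RNA gene Lincmd1, and miR-672-5p at chrX:104116228-104116250 on the minus strand, within Nexmif. Of the C and U rich set, miR-7058-3p lies at chr7:126367971-126367992 on the minus strand, within Lat, and miR-483-3p at chr7:142654932-142654952 on the minus strand, within the growth factor gene Igf2.

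Codonopsis lungs had higher levels of 41 of the 400 tested miRNAs (10.2%) and lower levels of 0 (0%) at a Benjamini-Hochberg adjusted p under 0.05 in limma. Of the 41, 12 hold a UG repeat and 14 belong to the miR-466 and miR-669 families, with 2 in both groups. Another 10 are rich in C and U, and 7 were placed in none of these groups. The repeat and the share of C and U could be read only for the 27 of the 41, and the 324 of the 400, with a RefSeq sequence. Without one were 12 of the 14 miR-466 and miR-669 entries and 2 of the 7, miR-6923-3p and miR-468-3p. The differences of the 41 lay between 0.67 and 1.89 on the log2 scale with a median of 1.22, and 35 were at least 2-fold. The median over all 400 was 0.07, with 247 of them higher (61.8%). That share depends on the scaling, with 99 higher (24.8%) on the 75th percentile over all miRNAs, 142 (35.5%) after quantile normalization and 160 (40%) on the median. The 3 codonopsis arrays all lay above the 3 model arrays for 72 miRNAs (18%) and all below for 10 (2.5%). To be tested, a miRNA had to be detected on each of the 3 arrays of 1 group or of both. Of the 41, 27 were detected on all 6 arrays, and the other 14 passed that filter only because codonopsis arrays detected them.

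The calls lie close to the threshold, with limma adjusted p-values of 0.0395 to 0.0497. Without codonopsis 1, codonopsis 2, model 1 or model 3 none passed (56, 93, 58 and 58 at an unadjusted p under 0.05), without model 2 there were 36, and without codonopsis 3 there were 90. Leaving out 1 array could not turn the sign of the 41 differences, since in each every codonopsis array stood above every model array. Their medians in these 6 fits were 1.08 to 1.41. A limma fit of all 9 arrays, in which the control arrays enter both the estimate of the spread and the choice of miRNAs for scaling, called 0, with 43 at an unadjusted p under 0.05 and a median of 1.04 for the 41. With the scaling of the 6 arrays kept it also called 0 (52 at an unadjusted p under 0.05). The same fits without control 1 called 43 and 48, with 40 and 41 of the 41 among them. With normexp background correction 18 were called and the median of the 41 was 0.26, and with scaling on those miRNAs that all 9 arrays detected 14 were called higher and 3 lower.

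**Figure D1:**
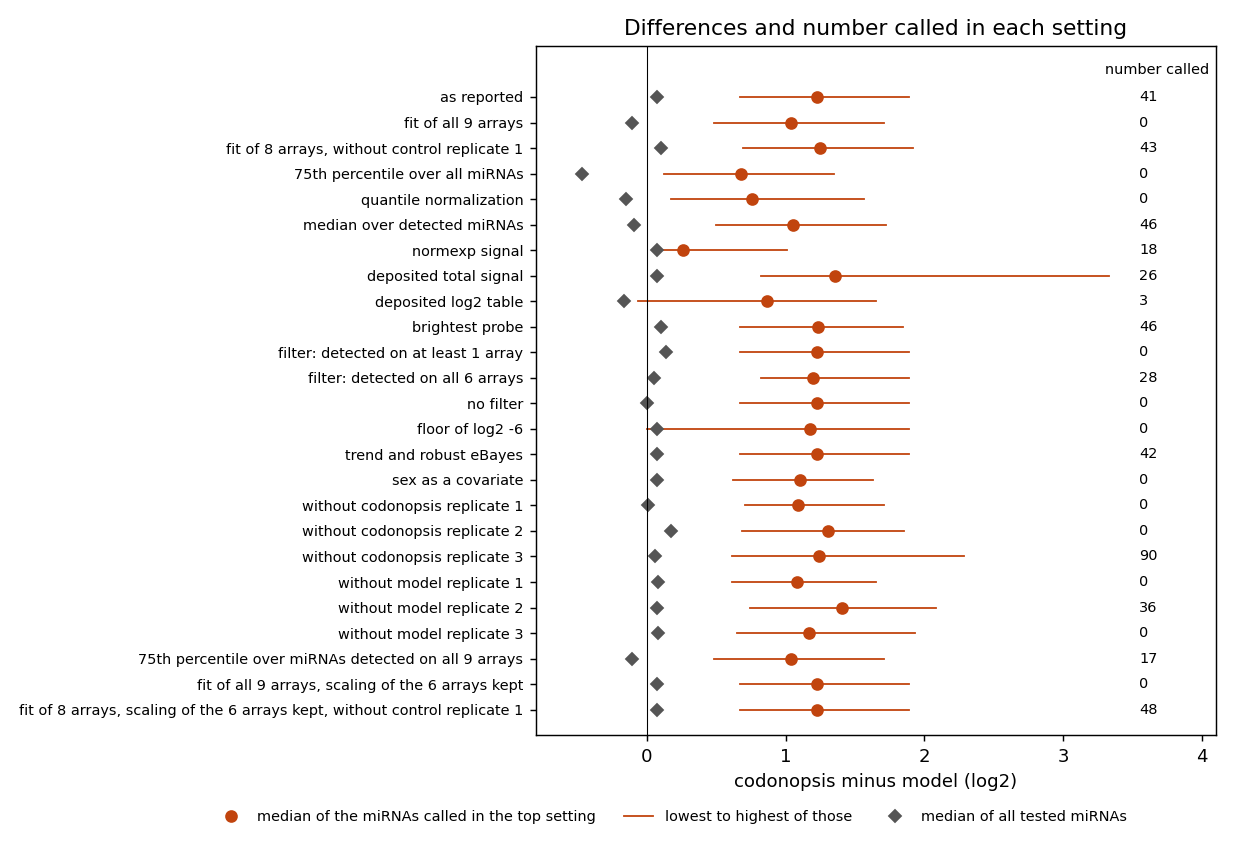
Each line is 1 way of processing or fitting, with the log2 difference codonopsis minus model on the horizontal axis. The red point is the median of the 41 miRNAs called in the setting at the top and its line their lowest to highest difference, the grey diamond is the median of all tested miRNAs, and the number at the right counts the miRNAs called in that setting. The red medians lie right of the grey ones throughout, between 0.26 and 1.41, whereas the number called runs from 0 to 90.

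Of the 14 tested miRNAs with a UG repeat, 12 rose. Since the repeat was chosen with earlier results of these data known, its counts are a description only. The test took in 4 of the 14 only through their detection on codonopsis arrays, and of the 10 detected on all 6 arrays 9 rose, beside 27 of all 343 such miRNAs (7.87%). Among them was miR-574-5p, known in human lung tumour cells to bind the RNA-binding protein CELF1 through its GU-rich sequence. Its level (log2 of the signal over the 75th percentile of its array) was 1.50, 1.04 and 1.67 on the codonopsis arrays, against 0.27, 0.67 and 0.35 on the model arrays. Every codonopsis array stood above every model array, and the difference was 0.97 (SE 0.22, limma adjusted p = 0.0421). On the control arrays, which lie on another slide, miR-574-5p stood at 0.34, 0.18 and 0.54, within the range of the model arrays or just below it.

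For miR-3082-5p the levels were 0.88, 0.45 and 0.88 with codonopsis, against -0.60, -0.11 and -0.51 in model lungs (1.15, SE 0.21). The levels of miR-1187 were 0.38, -0.05 and 0.42, against -1.15, -0.61 and -1.02 in model lungs (1.18, SE 0.22). In all of these the female codonopsis 3 stood as high as the male codonopsis 1, and model 2 was the highest model array. For miR-32-3p the levels were -0.82, -1.25 and -0.85 with codonopsis, against -2.55, -1.85 and -2.32 in model lungs, a difference of 1.27 (SE 0.23). Its partner strand miR-32-5p, from the other arm of the hairpin and without the repeat, was at -5.66, -6.18 and -5.16, against -5.55, -5.37 and -5.23 in model lungs (-0.28, SE 0.27, limma adjusted p = 0.728). Of the 2 strands of this hairpin, miR-32-3p passed the test and miR-32-5p did not.

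The other members with a UG repeat that rose differed by 0.82 (miR-672-5p) to 1.31 (miR-3097-5p), with miR-669n at 1.24, miR-466j at 1.24, miR-6348 at 1.31 and miR-5709-3p at 1.27. The muscle miRNA miR-206-3p, which promotes the differentiation of skeletal muscle, stood at -3.90, -4.37 and -4.44 with codonopsis, against -5.56, -5.10 and -5.27 in model lungs (1.07, SE 0.21). Of the other 5 tested muscle strands miR-208b-3p differed by 0.27 (SE 0.22), and the remaining 4 were lower, with none passing the test. The level of miR-1a-3p, abundant in heart and skeletal muscle, was -1.09, 2.60 and -1.43 with codonopsis, against 1.85, 1.10 and 0.85 in model lungs. The summed signal of the 6 tested striated muscle markers, in multiples of the 75th percentile, was 1.12, 13.0 and 0.943 with codonopsis, against 7.27, 4.27 and 4.06 in model lungs.

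In the let-7 family, whose members restrain genes of growth and development, let-7k alone rose, at -3.80, -3.99 and -4.70 with codonopsis, against -5.44, -5.19 and -5.32 in model lungs (1.15, SE 0.26, limma adjusted p = 0.0419). The other 9 tested miRNAs with the same seed differed by -0.10 to 0.03. Among them was let-7b-5p, which also holds the repeat, at 4.89, 4.58 and 4.73 with codonopsis, against 4.77, 4.87 and 4.66 in model lungs (-0.03, SE 0.15). The remaining member with a repeat, miR-294-3p of the embryonic stem cell miR-290 cluster, was above every model array but missed the threshold, with a difference of 0.79 (SE 0.20, limma adjusted p = 0.0609).

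The repeat is uncommon among mouse miRNAs. It occurs in 32 of the 1679 mature sequences of the RefSeq table (1.91%), in 29 of the 1608 miRNAs on the array that have a sequence there (1.80%) and in 14 of the 324 tested ones (4.32%). The median difference of the 14 was 1.17, and across scalings and signals it stood 0.35 to 1.18 above the median of all tested miRNAs.

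**Figure D2:**
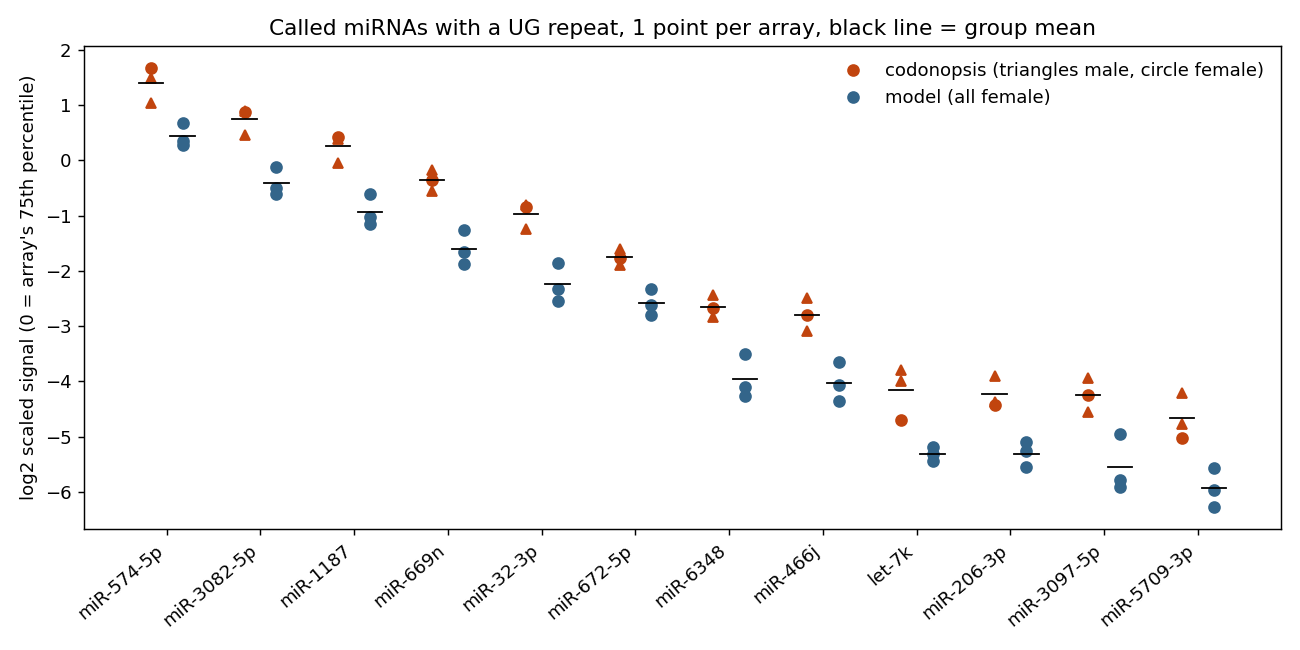
Levels of the 12 miRNAs with a UG repeat that rose, 1 point per array, as log2 of signal over the array's 75th percentile, with codonopsis left of model for each miRNA and a black line at each group mean. Triangles are the male codonopsis arrays and circles female arrays. In all 12 every codonopsis array lies above every model array, by 0.82 to 1.31 between the means.

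The entries numbered miR-466 and miR-669, with miR-297 and miR-467, are near-identical copies, most of which lie in 1 intron of the mouse gene Sfmbt2, which encodes a Polycomb protein. Of 30 tested entries 14 rose, 28 were higher, and the median difference was 0.94. All 14 are among the 26 entries detected on all 6 arrays. Of all 343 miRNAs so detected 27 rose (7.87%), the 14 included. These entries, too, were listed with earlier results of these data known. RefSeq places at least 1 copy inside Sfmbt2 (chromosome 2, 10370440 to 10595253) for 23 of the 30, and 11 of these 23 rose. Another 2 that rose lie elsewhere, miR-669n on chromosome 3 within Slc30a7 and miR-466j on chromosome 10, and both hold the UG repeat.

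The largest difference among the 14 was that of miR-669e-5p, at -0.76, -0.74 and -1.94 with codonopsis, against -3.52, -2.65 and -2.95 in model lungs (1.89, SE 0.39, limma adjusted p = 0.0419). Here the male arrays stood well above the female one, which in turn stood above every model array. For miR-466m-5p the levels were -1.81, -2.19 and -2.07, against -3.50, -2.86 and -3.30 in model lungs (1.20, SE 0.22), and for miR-669l-5p -1.43, -1.87 and -1.73, against -3.20, -2.57 and -2.94 in model lungs (1.23, SE 0.22). In these the sexes did not separate. The entry miR-466i-5p missed the threshold at 3.25, 2.93 and 3.57 with codonopsis, against 2.31, 2.69 and 2.36 in model lungs (0.80, SE 0.21, limma adjusted p = 0.0719), although the groups did not overlap.

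The 2 arms of these hairpins gave different counts. Of 18 tested 5p entries 12 rose and all 18 were higher, with a median of 1.14. Of 8 tested 3p entries 0 rose and 6 were higher, with a median of 0.27. Over all 400 tested miRNAs 41 rose (10.2%) and 247 were higher (61.8%). Across scalings and signals the 5p median stood 0.30 to 1.14 above that of all tested miRNAs, and the 3p median from 0.10 below to 0.23 above it. Within 1 hairpin, miR-669f-5p rose by 1.07 (SE 0.25), while miR-669f-3p differed by -0.01 (SE 0.17). For miR-466h the 5p strand rose by 1.08 (SE 0.24), and its 3p strand differed by 0.50 (SE 0.43), at -3.03 and -3.01 on the male arrays and -4.42 on the female codonopsis array, against -4.47, -3.68 and -3.80 in model lungs. In the other hairpins with both arms tested, the 5p and 3p differences lay closer together. They were 1.01 and 0.76 for miR-466f, 0.80 and 0.66 for miR-466i, and 0.07 and 0.04 for miR-467b. The difference between the arms was not itself tested, and since copies of these families are nearly identical, the array may not separate single entries.

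Of the 16 tested miRNAs with at least 70% C and U, 10 rose, 15 were higher, and the median difference was 1.19. These figures lean on the filter, since 8 of the 16 were tested only because codonopsis arrays detected them. All 8 were higher, as were all 30 of the 400 that passed the filter in this way. Of the 8 detected on all 6 arrays 4 rose and 7 were higher, with a median of 1.01. Among all 343 miRNAs so detected 27 rose (7.87%) and 205 were higher. The largest difference among the 10 was that of miR-7058-3p, at -4.86, -5.16 and -5.32 with codonopsis, against -7.31, -6.45 and -7.08 in model lungs (1.83, SE 0.26, limma adjusted p = 0.0395), where it was detected on no model array. For miR-7047-3p the levels were -2.57, -2.80 and -3.35, against -4.66, -3.84 and -4.28 in model lungs (1.35, SE 0.29), and for miR-207 -2.60, -2.82 and -3.27, against -4.42, -3.68 and -4.09 in model lungs (1.17, SE 0.26). The Igf2 miRNA miR-483-3p stood at -3.39, -3.63 and -3.68 with codonopsis, against -4.68, -4.20 and -4.48 in model lungs (0.89, SE 0.18). In each of these 4 the female codonopsis 3 was the lowest codonopsis array and still above the model arrays. The 6 that did not pass spread over the whole range of the 16, which was -0.01 to 2.48.

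These C and U rich miRNAs also separated the control arrays from each other. On control 1, a male mouse, miR-7058-3p stood at -2.22, against -5.92 and -6.65 on the female controls 2 and 3, and miR-7047-3p at -0.24, against -3.99 and -4.14. Of all 41 miRNAs that rose, control 1 was the highest control array for 34. In 17 of the 41 every codonopsis array stood above every control array, and in 31 the codonopsis mean lay above the control mean. The model mean lay below the control mean for 31 and above it for the other 10. Since the 41 were chosen for codonopsis levels above model levels, these counts with the control arrays are a description only. No such count over all tested miRNAs is given, so whether the 41 stand apart in them was not tested. Against the controls, group cannot be told apart from slide.

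Of the 342 tested miRNAs not placed in these 3 groups 7 rose (2.05%), with a median difference of 0.04 over the 342. That share leans on the filter, since 16 of the 342 were tested only because codonopsis arrays detected them, and 5 of the 16 rose. Of the 301 detected on all 6 arrays 2 rose (0.664%), beside 27 of all 343 such miRNAs (7.87%). Among the 291 of the 342 with a sequence 5 rose, and the other 51 could not be searched. The 7 included miR-1306-3p, whose hairpin lies in Dgcr8, the gene of a subunit of the enzyme complex that releases miRNA hairpins. Its levels were -4.76, -5.26 and -5.14 with codonopsis, against -6.60, -6.04 and -6.79 in model lungs (1.42, SE 0.25, limma adjusted p = 0.0395), where no model array detected it. Others were miR-468-3p at 1.22, miR-6923-3p at 1.27, miR-485-3p of the imprinted Dlk1-Dio3 cluster at 1.07 and miR-99b-3p at 0.86. Of all 41, 39 were higher with every probe, the exceptions being miR-99b-3p and miR-466a-5p, in which the lowest probe differed by 0 and -0.09.

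The counts also differed by signal. When the 400 were divided by mean level into 4 bins of 100, from the dimmest to the brightest, 18, 11, 9 and 3 rose. The median difference of the 3 sequence groups was 1.07, 1.07, 1.27 and 0.97 in these bins, and that of all others 0.11, 0.20, 0.03 and -0.03. The bins held 21, 23, 9 and 5 members of the groups. Since the groups were chosen with results of these data known, their medians are a description only. There were 9 miRNAs detected on every codonopsis array and on no model array. The filter took these in only through the codonopsis arrays, so their direction was largely fixed. All 30 of the 400 that passed in this way were higher, and 14 of the 30 rose, beside 41 of all 400 (10.2%). Of the 9, 7 rose, by 1.59-fold (miR-7085-3p) to 3.56-fold (miR-7058-3p). The 95% intervals of these 2 were 0.31 to 1.02 and 1.21 to 2.46 on the log2 scale. The folds are the fitted ones, not lower bounds. They rest on the miRNAs' own signal on the model arrays, which was not called detected there. That signal lay above the lowest signal of a detected miRNA. The remaining 2 of the 9, miR-1896 and miR-5119, missed the threshold at 1.32 (SE 0.38) and 1.37 (SE 0.51). In the opposite way, only miR-6970-5p was detected on every model array and no codonopsis array, with a difference of -0.21 (SE 0.20).

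**Figure D3:**
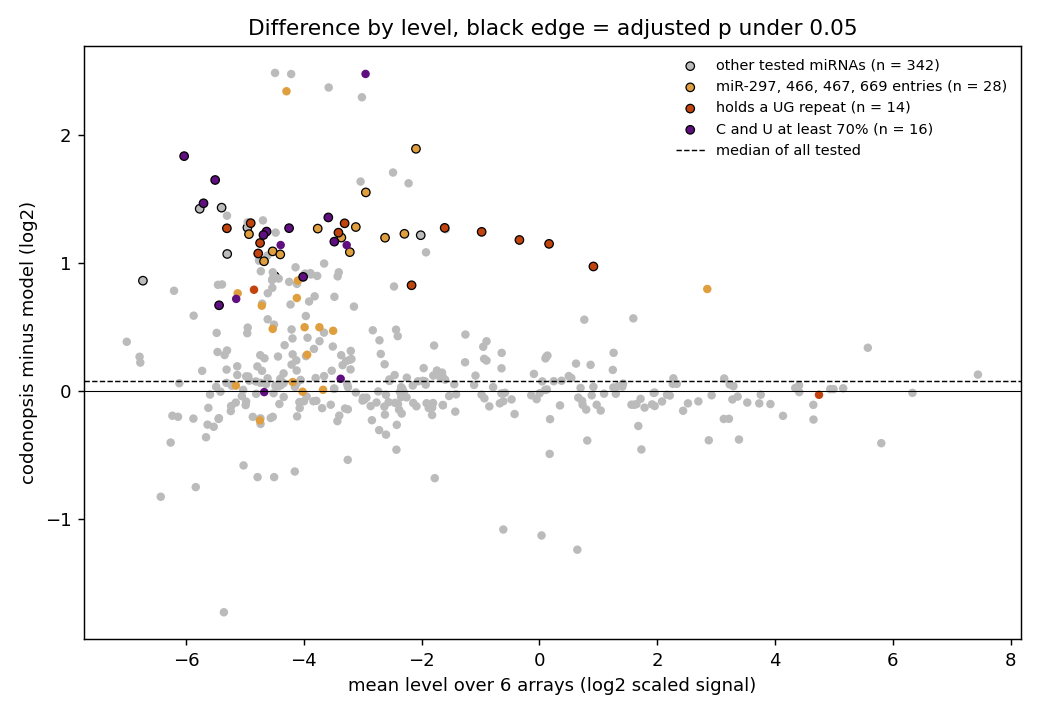
Each point is 1 of the 400 tested miRNAs, with its mean level over the 6 arrays (log2 of signal over the 75th percentile) on the horizontal axis and the log2 difference codonopsis minus model on the vertical axis. Colours mark the 3 sequence groups, with entries of 2 groups drawn as UG repeats, and a black edge marks an adjusted p under 0.05. The black-edged points all lie above 0.67, and the grey bulk lies around the dashed median of 0.07.

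No miRNA passed the test on the lower side in limma, where 10 had all codonopsis arrays below all model arrays. The smallest p-values among them were those of miR-6538 at -4.53, -4.51 and -4.36, against -4.06, -3.74 and -3.70 in model lungs (-0.63, SE 0.16, limma adjusted p = 0.0606), of miR-29b-1-5p (-0.67, SE 0.19, adjusted p = 0.0852) and of miR-3960 (-0.49, SE 0.14, adjusted p = 0.0892). The strand miR-21a-5p stood at 3.22, 3.05 and 3.33 with codonopsis, against 3.65, 3.40 and 3.68 in model lungs (-0.38, SE 0.16, limma adjusted p = 0.247), and its partner strand miR-21a-3p differed by -0.40 (SE 0.17). Both strands stood lower on every codonopsis array, and neither passed the test. With normexp the sign of miR-21a-3p turned, to 0.038.

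All 5 tested members of the miR-29 family were lower, with a median of -0.23, and 0 passed. Its member miR-29b-3p stood at 2.90, 2.32 and 2.83 with codonopsis, against 3.00, 3.01 and 3.20 in model lungs (-0.39, SE 0.20), and miR-29a-3p differed by -0.23 (SE 0.19). Across scalings and signals the family median stood 0.12 to 0.31 below that of all tested miRNAs. For the let-7 family, with 6 of 11 tested members higher and a median of 0.01, the position relative to all tested miRNAs turned with the scaling, from 0.08 below their median to 0.17 above it.

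**Figure D4:**
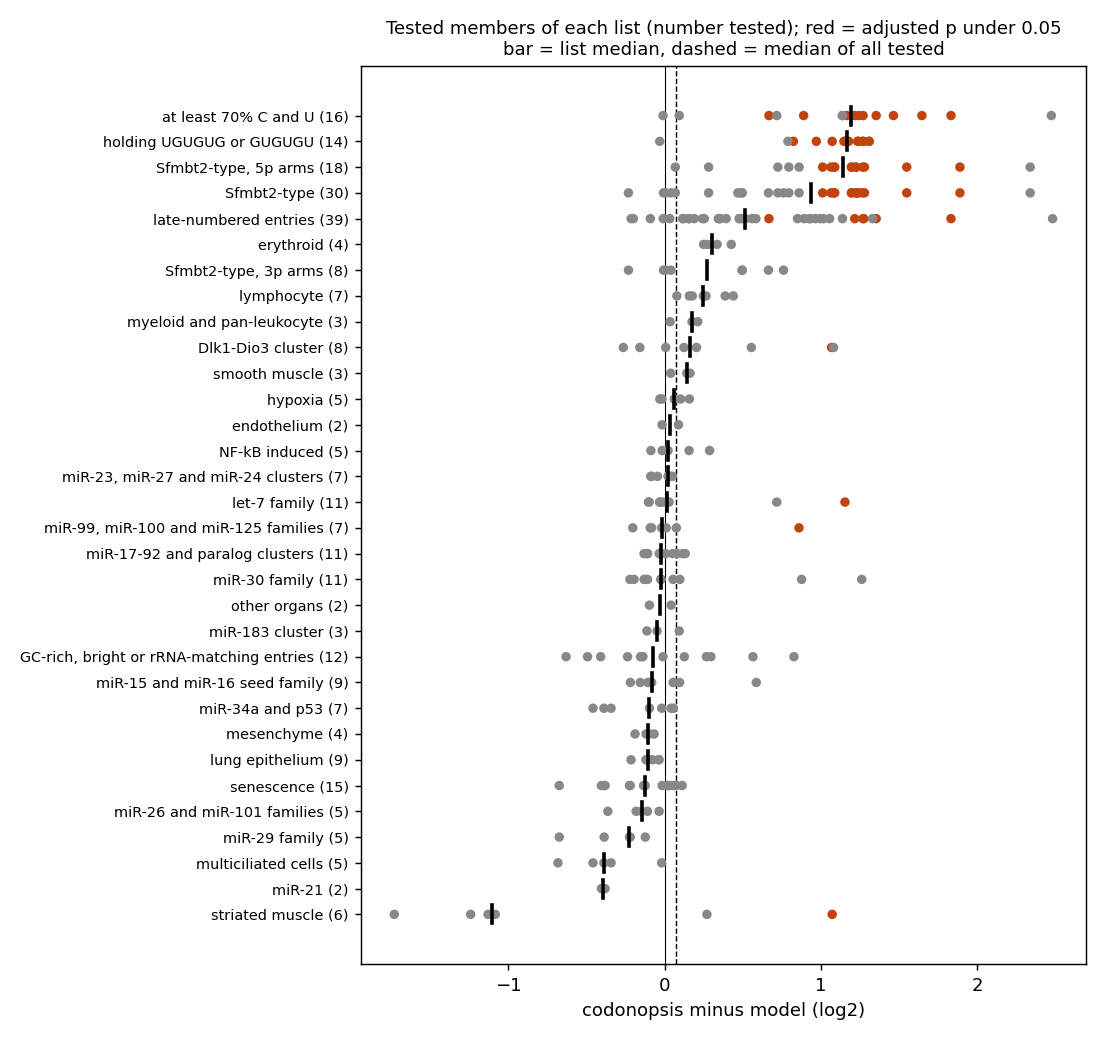
Each row is a list of miRNAs or of cell type markers with its number of tested members, each point is 1 member, and the horizontal axis gives the log2 difference codonopsis minus model. Red points passed an adjusted p of 0.05, the short bar is the list median and the dashed line the median of all tested miRNAs. Of the red points most stand in the UG repeat, Sfmbt2-type and C and U rich lists. Of the 39 late-numbered entries 6 are red, beside 41 of all 400 tested miRNAs (10.2%). Of these 6, miR-7058-3p, miR-7047-3p, miR-7017-3p, miR-7085-3p and miR-7011-3p stand in the C and U rich list as well. The striated muscle list has the lowest median, -1.11.

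Among markers of cell types, miR-206-3p alone passed. It was detected on all 3 codonopsis arrays and on 2 model arrays, so the filter took it in only through codonopsis. All 9 tested markers of lung epithelium, the miR-200 family that keeps cells epithelial among them, were lower, with a median of -0.11. All 5 tested strands of the multiciliated cell family miR-34 and miR-449 were lower as well, with a median of -0.39, and all 4 of mesenchyme with a median of -0.11. For miR-34b-5p the levels were 0.81, 2.07 and 1.62 with codonopsis, against 2.35, 1.38 and 2.16 in model lungs (-0.46, SE 0.39), so that the groups overlapped. All 4 tested erythroid strands were higher, with a median of 0.31, and miR-451a stood at 5.45, 6.10 and 5.68 with codonopsis, against 5.73, 5.09 and 5.41 in model lungs (0.34, SE 0.24). All 7 tested lymphocyte strands were higher with a median of 0.25, and miR-150-5p differed by 0.44 (SE 0.33). Across scalings and signals the medians stood below that of all tested miRNAs for epithelium (by 0.04 to 0.18), multiciliated cells (by 0.38 to 0.50) and mesenchyme (by 0.02 to 0.19). They stood above it for erythroid cells (by 0.15 to 0.33) and lymphocytes (by 0.02 to 0.17). With sex as a covariate, which leaves codonopsis 3 alone against the model arrays, the medians were 0.00 for epithelium and for mesenchyme, -0.31 for multiciliated cells, 0.26 for erythroid cells and 0.26 for lymphocytes, beside 0.07 for all tested miRNAs.

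The sexes can be set apart for the 41 miRNAs that rose only as a description, since the fit that chose them held all these arrays and the codonopsis group has 1 female. The female codonopsis 3 lay above all 3 model arrays, also female and in the same row, for all 41, by 0.62 to 1.63 above the model mean with a median of 1.10. The male codonopsis 1 and 2 gave a median of 1.24. In the limma fit with sex as a covariate all 41 were at an unadjusted p under 0.05 and 0 passed (60 of 400 at an unadjusted p under 0.05, smallest adjusted p 0.21). Within the groups the arrays kept an order over these 41, with model 2 the highest model array for 40, model 1 the lowest for 36 and codonopsis 1 the highest codonopsis array for 35.

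A different set of miRNAs separated the codonopsis arrays from each other. For 12 miRNAs both male arrays stood more than 4-fold above the female codonopsis 3, and for 0 the reverse held. None of the 12 passed the test, and codonopsis 3 lay within the range of the model arrays for 10 of them. The level of miR-7061-5p was -2.50, -2.22 and -5.02 with codonopsis, against -6.81, -4.98 and -5.39 in model lungs (2.48, SE 0.83, limma adjusted p = 0.153). For miR-302c-3p, of an embryonic stem cell cluster, it was -1.04, -0.74 and -5.40, against -6.56, -3.85 and -3.88 in model lungs. On the control arrays miR-302c-3p stood at -2.36 on the male control 1 and at -2.14 and -7.70 on the female controls 2 and 3, whereas miR-466f-3p stood at 0.51, against -4.95 and -5.74. The male control was the highest control array for 3 of the 12. Model 1 was the lowest model array for all 12.

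**Figure D5:**
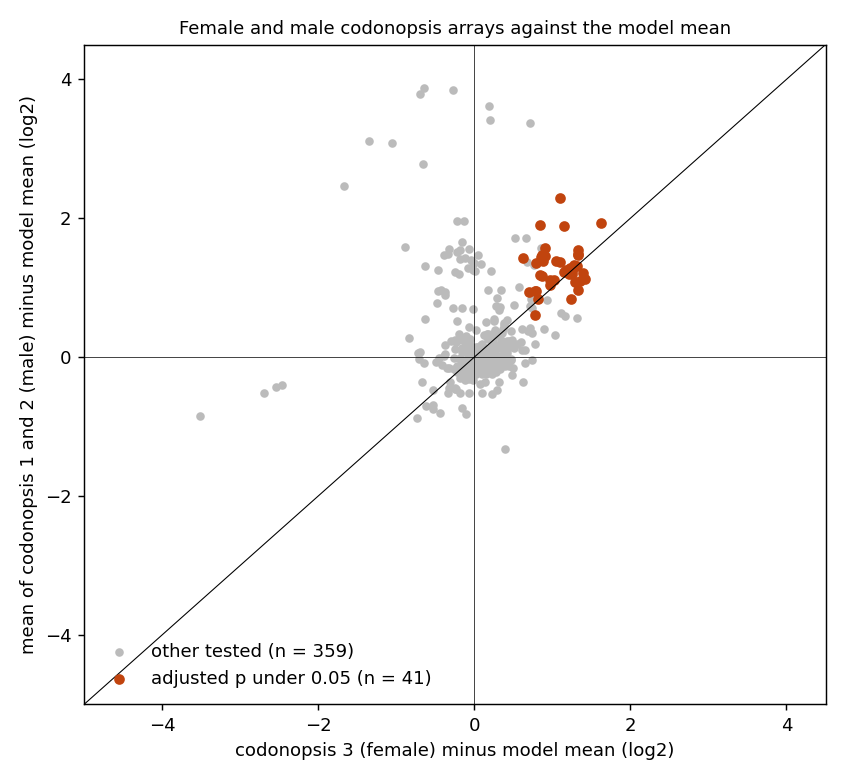
Each point is a tested miRNA, with the level of the female codonopsis 3 minus the model mean on the horizontal axis and the mean of the male codonopsis 1 and 2 minus the model mean on the vertical axis, both log2. Red points are the 41 that rose and lie near the diagonal, at 0.62 or more on the horizontal axis. The grey points at the upper left lie above the model mean on the male codonopsis arrays, and near or below it on codonopsis 3.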

How the data were processed

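Per the file headers the deposited scanner files hold linear intensity written by Agilent Feature Extraction 11.5.1.1 (10.10 per the submitters' processing notes), corrected for background, with a deposited detection flag of 0 or 1 per miRNA. The authors' deposited log2 value table served as an alternative only. Outlier spots (2.86% to 3.17%) were left out, and means of processed intensity were taken first within a probe (7 to 30 spots), then within a miRNA (1 to 4 probes). The scale of an array was the 75th percentile of the 343 miRNAs that all 6 arrays detected, values below log2 -8 were set to that floor, and log2 was taken. A limma model (3.58.1, R 4.3.3; lmFit, eBayes) with group as factor left 4 residual degrees of freedom, and two-sided p-values were adjusted by Benjamini-Hochberg over the 400 tested miRNAs. These p-values rest on the spread between arrays of 1 mouse each, with precision limited by the few arrays. Mouse, labelling, hybridisation and, within codonopsis, sex and row enter that spread together. A further 114 miRNAs were detected on some of the 6 arrays and not tested, and 1367 on none. Normexp (offset 50) used the median signal, since the mean signal is not among the columns used here.

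The members of the comparison, the lists and the motif were chosen with earlier results of these data known. Names were drawn from the 30 miRNAs with the smallest p, their partner strands, the 10 brightest and up to 4 bright members of each list. Also drawn on were the 10 with the smallest p in each direction without overlap and those detected on 1 side only. Not all of these are printed. Others named, such as let-7k, miR-3097-5p, miR-207, miR-669f, miR-294-3p, miR-7061-5p and miR-302c-3p, were chosen after their values were seen.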

Additional observations from a re-analysis of the deposited data

How the results depend on the processing

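The 41 were called from these arrays, with every codonopsis array above every model array, so a steady sign was largely fixed by their choice. Each of the 41 kept its sign in every setting that tested it, except miR-99b-3p, which was at -0.064 in the authors' deposited log2 table and at 0 with a floor of log2 -6. Against 41 called higher and 0 lower, limma called 0 higher when all 9 arrays were fitted, with quantile normalization, with scaling on all miRNAs, with the filters of detection on at least 1 array or none, with the floor of log2 -6 and with sex as a covariate (43, 86, 146, 98, 144, 74 and 60 at an unadjusted p under 0.05). The fit of all 9 arrays with the scaling of the 6 kept, also chosen after seeing the data, called 0 as well, and without control 1 it called 48 (47 higher, 1 lower). It called 18 with normexp (17 higher, 1 lower), 26 with the deposited total signal (24 higher, 2 lower), 3 with the deposited log2 table (2 higher, 1 lower) and, with the 75th percentile over miRNAs detected on all 9 arrays, an alternative chosen after seeing the data, 17 (14 higher, 3 lower). Scaling to the median gave 42 higher and 4 lower, the brightest probe 45 and 1, and the trended robust fit 41 and 1. Leaving out 1 array gave 0 to 90 calls, of which 0 to 88 were higher and 0 to 2 lower. The scaling moved the median of all tested miRNAs from 0.07 to -0.47 with the 75th percentile over all miRNAs and to -0.15 with quantile normalization. The cause was not tested.

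Among miRNAs that did not pass, signs turned for miR-32-5p (0.043 with normexp, 0.22 with the sex covariate), miR-21a-3p (0.038 with normexp) and miR-6970-5p (0.046 with normexp). They also turned for miR-451a (-0.21) and miR-150-5p (-0.10), both with the 75th percentile over all miRNAs. For miR-208b-3p the value was -0.27 with that scaling, -0.24 with quantile normalization and -0.33 in the deposited log2 table. The sign of miR-466h-3p turned to -0.048 with the 75th percentile over all miRNAs, -0.0037 in the deposited log2 table and -0.43 with the sex covariate. For miR-669f-3p it turned to 0.019 without control 1, 0.058 with normexp and 0.19 with the total signal, and leaving out 1 array gave -0.12 to 0.071. For let-7b-5p it turned to 0.060 with quantile normalization and 0.063 in the deposited log2 table, and leaving out 1 array gave -0.11 to 0.045. With 3 arrays a group, signals near background limit what the dimmest miRNAs can show. No paired analysis was possible because the replicate numbers only follow accession order.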
